A study of Mus musculus with 23 samples.

Results

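The genes described here are 10 markers of the deep layers of the cerebral cortex: Fezf2, Bcl11b, Tbr1, Foxp2, Crym, Ldb2, Sox5, Tle4, Etv1 and Pcp4. They were chosen by symbol, as genes that mark projection neurons of layers 5 and 6, and all 10 were found among the 39017 genes counted. RNA was measured in pieces of mouse cortex by sequencing of total RNA after removal of ribosomal RNA. The mice carried 1 edited copy of H3f3a, a gene for the histone variant H3.3, in which glycine 34 was replaced by arginine (G34R), valine (G34V) or tryptophan (G34W), or were wild type (WT). By its title, the series asks how such a substitution alters the recruitment of DNMT3A, an enzyme that methylates DNA, and leads to neurodegeneration.

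At 10 weeks of age there were 6 WT animals (labelled Hf3fa+/+), 3 G34R animals (Hf3fa+/G34R), 3 G34V animals (Hf3fa+/G34V) and 2 G34W animals (Hf3fa+/G34W). All were labelled male except G34W replicate 2, labelled female although its title begins with the letter used for males. At postnatal day 7 there were 4 WT animals (H3f3a +/+) and 4 G34R animals (H3f3a G34R/+), with 2 males and 2 females in each genotype. Each replicate was a separate animal with its own number, and WT replicate 3 at 10 weeks had 2 libraries, which were summed. The labels give no strain, no litter and no date, and counts per gene do not show the edited codon, so the genotypes could not be checked here. The 3 substitutions were compared with the same 6 WT animals, so their comparisons are not independent of each other.

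Deep-layer neurons send axons out of the cortex. Layer 5 holds the neurons that project to the spinal cord and brainstem, and layer 6 holds the main projection to the thalamus. Their identity is set by transcription factors that repress each other's programmes: Fezf2 acts through Bcl11b (also called Ctip2) to specify the subcerebral neurons of layer 5, while Tbr1 and Sox5 favour layer 6 and restrain Fezf2. Several of these genes remain active in the adult, and Foxp2, Bcl11b and Pcp4 are also active in neurons of the striatum, which lies beneath the cortex.

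The RefSeq promoter tables of GRCm38.p6 held windows for 7 of the 10 genes, 9 windows in all. Each runs from 250 bases before to 50 bases after a start listed for the gene. The windows of 4 genes are shown to let the results be read beside the sequence: Fezf2, the gene with the largest change in G34R, Tbr1, which passed neither the tests by genotype nor that by age, and Sox5 and Pcp4, with the largest fall and rise with age. Capitals mark each CG, the dinucleotide that DNA methyltransferases modify, and all are written 5′ to 3′ on the gene's strand.
Fezf2 (chr14:12345816-12346115, minus strand): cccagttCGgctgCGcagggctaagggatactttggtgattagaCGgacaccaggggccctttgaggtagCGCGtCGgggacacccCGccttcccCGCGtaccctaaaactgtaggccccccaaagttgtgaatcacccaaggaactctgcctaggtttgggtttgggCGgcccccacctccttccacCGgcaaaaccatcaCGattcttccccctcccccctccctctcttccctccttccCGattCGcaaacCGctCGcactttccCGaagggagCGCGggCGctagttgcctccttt
Tbr1 (chr2:61804203-61804502, plus strand): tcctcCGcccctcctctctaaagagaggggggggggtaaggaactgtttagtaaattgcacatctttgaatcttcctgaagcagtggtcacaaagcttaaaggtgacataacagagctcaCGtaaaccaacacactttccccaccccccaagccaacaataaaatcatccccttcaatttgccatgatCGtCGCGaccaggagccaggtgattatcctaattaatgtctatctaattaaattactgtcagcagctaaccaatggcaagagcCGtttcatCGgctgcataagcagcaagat
Sox5 (chr6:143947057-143947356, minus strand): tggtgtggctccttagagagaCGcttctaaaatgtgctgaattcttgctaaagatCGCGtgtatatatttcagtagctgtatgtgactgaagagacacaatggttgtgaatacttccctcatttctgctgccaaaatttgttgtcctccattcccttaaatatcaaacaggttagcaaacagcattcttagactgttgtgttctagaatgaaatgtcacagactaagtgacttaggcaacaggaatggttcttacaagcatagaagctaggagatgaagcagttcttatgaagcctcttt
Pcp4 (chr16:96467356-96467655, plus strand): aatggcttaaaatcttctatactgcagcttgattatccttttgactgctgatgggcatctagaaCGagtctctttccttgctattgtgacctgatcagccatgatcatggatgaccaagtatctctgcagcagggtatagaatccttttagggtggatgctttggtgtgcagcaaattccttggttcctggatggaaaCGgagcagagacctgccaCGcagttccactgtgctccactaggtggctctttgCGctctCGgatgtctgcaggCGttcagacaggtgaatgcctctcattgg
The Fezf2 window holds 20 CG, and 26.5% of the 32851 mouse windows hold at least as many. Tbr1 has 7 (52.1% hold at least as many), Pcp4 6 (56.4%) and Sox5 3 (76.7%), against a median of 7 over all windows. Of the windows not shown, Bcl11b has 9, the 2 windows of Etv1 have 12 and 3, and those of Tle4 have 28 and 44, the last a number that 2.25% of windows reach. No methylation was measured in the files used here, so these counts describe the sequence only. The starts used for Fezf2, Tbr1 and Sox5 lie inside the gene's annotated span, which for Sox5 runs from 143828425 to 144781977. The sequence at the outermost start of these genes is not shown. On both strands, the T-box core TCACAC was found in the window of Bcl11b alone (14.5% of all windows hold it). The SOX core AACAAT was in 3 of the 9 windows, that of Tbr1 and 1 of the 2 of Etv1 and of Tle4 (10.7% of all windows). The FOX core GTAAACA was in none of the 9 (3.65% of all windows), and TATAAA was in that of Bcl11b and 1 of the 2 of Etv1 (13.6%).

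Levels are given as CPM (counts scaled to a common library total), after TMM scaling (a correction for differences in library composition), on 1 scale over all 22 animals. A gene was called when its adjusted p in edgeR's quasi-likelihood F-test, adjusted over all genes tested by the Benjamini-Hochberg method, was under 0.05. The smallest and largest 10-week libraries held 32283004 and 90067111 counts, those of day 7 28414057 and 53520391, and no member had fewer than 297 counts in any animal. Divided at the widest gap in the percentage of their counts from mitochondrial coding genes, the 10-week libraries formed 2 sets, 6 at 0.885% to 1.03% (3 WT and 3 G34R) and 9 at 1.12% to 1.36% (4 WT, 3 G34V and 2 G34W). The division ends some calls, turns some directions and moves some values by over 1.5 times. For several of these, the value within a set, with the sets as a block or per library is given. Fits with the sets as a block counted libraries, so that WT replicate 3 entered as 2 samples. As defining markers of cortex, the 18 upper-layer and 12 pan-neuronal genes were above 0 in every 10-week animal. The 14 markers of striatum and 9 of 10 markers of choroid plexus, the secretory epithelium of the ventricles, were above 0 as well. In bulk tissue, fewer cells of a type and less RNA per cell cannot be told apart.

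The deep-layer genes covered a wide range of levels. Per kilobase of exon, Pcp4, which encodes a small regulator of calmodulin, was the most abundant in WT at 10 weeks, at 163 ± 14 CPM per kilobase (SD, n = 6). Crym, which encodes a thyroid hormone-binding protein, followed at 22.7 ± 2.31, then the co-repressor gene Tle4 at 14 ± 0.755, the zinc finger gene Bcl11b at 13.2 ± 1.84, and Ldb2, a cofactor of LIM-domain proteins, at 11.6 ± 1.48. The T-box gene Tbr1 had 10.1 ± 0.948, the zinc finger gene Fezf2 5.81 ± 1.03, the ETS factor gene Etv1 3.12 ± 0.256, Sox5 2.53 ± 0.161 and the forkhead gene Foxp2 1.33 ± 0.226. Neighbours in this order did not overlap between animals, with 3 exceptions: the ranges of Tle4 and Bcl11b, of Bcl11b and Ldb2, and of Ldb2 and Tbr1 overlapped. These lengths join the exons of all annotated transcripts, so a gene with rarely used exons reads lower, and Foxp2 has the longest sum, 16.3 kilobases.

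**Figure D1:**
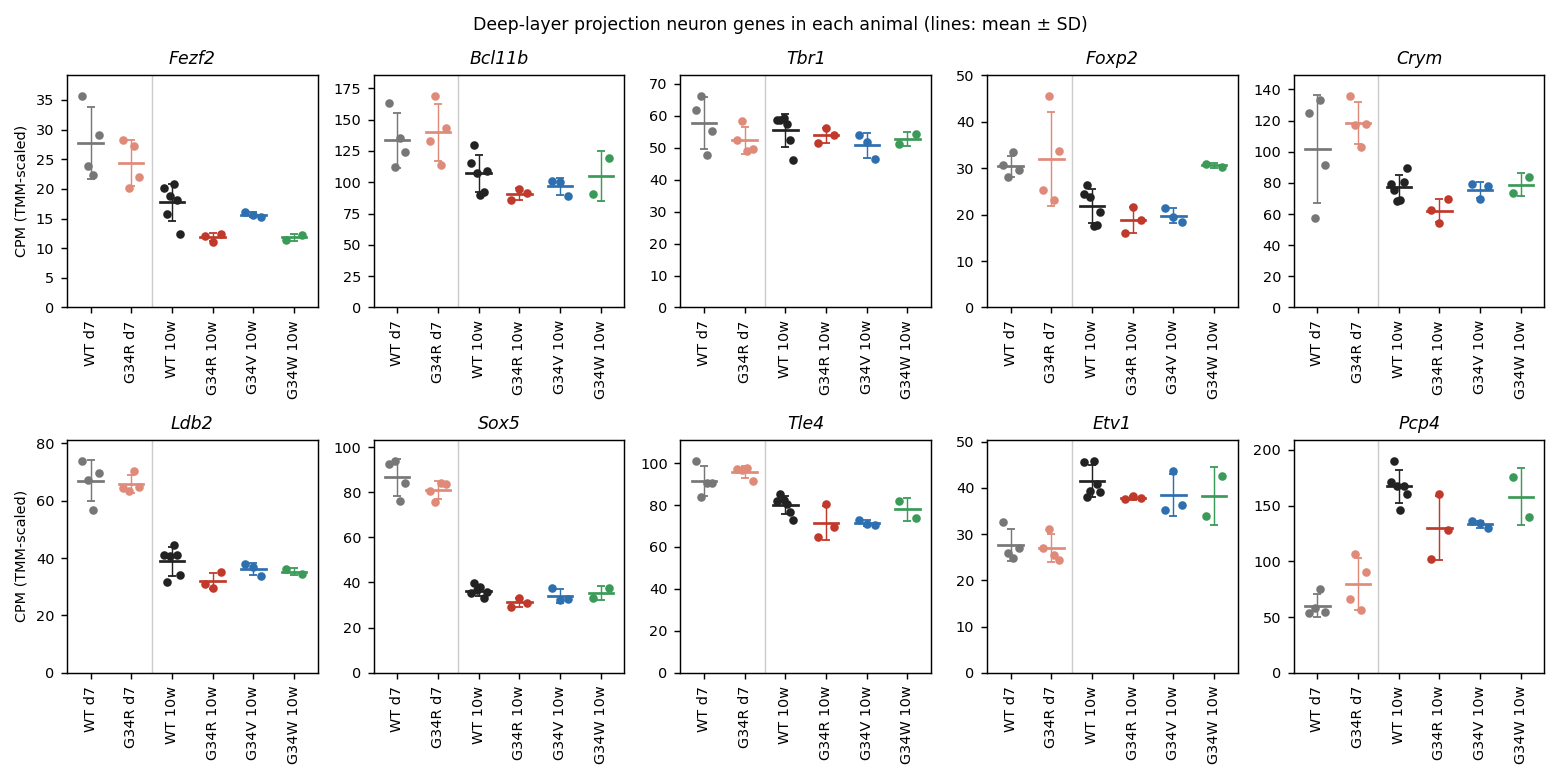
CPM of the 10 deep-layer genes (vertical axes, each from 0) in each of the 22 animals (points), by genotype and age, with lines for the mean and bars for its SD. Fezf2 lies at 11.1 to 12.4 CPM in the 3 G34R animals at 10 weeks against 12.4 to 20.9 in WT, and Sox5 and Pcp4 differ most between the ages.

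In G34R cortex at 10 weeks, 2 of the 10 genes fell, Fezf2 and Crym, and none rose. All 10 had a log2 fold change below 0, with a median of -0.24, while over the 21274 genes tested the median was -0.004 and 50.9% lay below 0. Of all genes 2.66% were called lower and 2.95% higher. At an unadjusted p under 0.05, 7 of the 10 were lower, against 9.43% of all genes. The 10 genes were chosen with earlier results of these data known, and they were not tested as a set.

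Fezf2 (GRCm38 chromosome 14, 12342094 to 12348189, minus strand) specifies subcerebral projection neurons and is a marker of layer 5. It had 20.2, 15.8, 18.8, 20.9, 18.1 and 12.4 CPM in the 6 WT animals, and 12, 11.1 and 12.4 in the 3 G34R animals. Every WT animal but replicate 6 lay above all G34R animals, and replicate 6 met the highest of them. The log2 fold change was -0.58 (SE 0.124, edgeR's adjusted p = 0.0079), or 0.667 of the WT level. Without G34R replicate 2 the value was -0.54 and the adjusted p rose to 0.0555.

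Within the library set that holds G34R, Fezf2 separated further. The 3 WT libraries had 20.2, 20.6 and 20.8 CPM and the 3 G34R libraries 11.9, 11.1 and 12.4, a log2 fold change of -0.79 (SE 0.0777, edgeR's adjusted p = 0.000383). With the sets as a block over all 10-week libraries it was -0.80 (SE 0.106, adjusted p = 0.00012). That fit counted the 2 libraries of WT replicate 3 as separate samples, so this p rests on more samples than animals. The 2 libraries of WT replicate 3, 1 in each set, gave 20.6 and 17.0 CPM for the same animal, and the other WT libraries of the second set gave 15.8, 18.0 and 12.4.

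**Figure D2:**
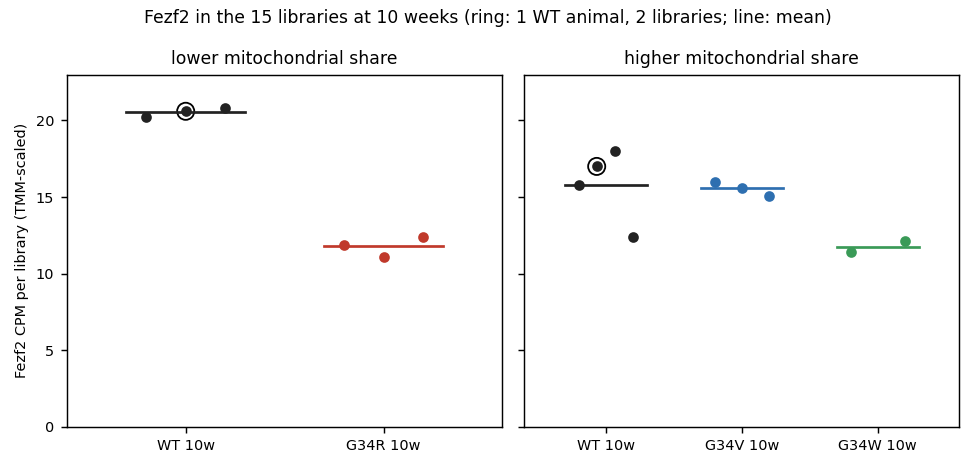
Fezf2 CPM in each of the 15 libraries at 10 weeks, divided by mitochondrial share into the lower set (left) and the higher set (right). Lines are means and rings mark the 2 libraries of 1 WT animal; in the lower set the WT libraries lie at 20.2 to 20.8 and the G34R libraries at 11.1 to 12.4.

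Crym (chromosome 7, 120186380 to 120202111, minus strand), expressed by deep-layer neurons that project out of the cortex, fell less. WT animals had 79.1, 75.4, 68.7, 69.3, 80.5 and 89.6 CPM, and G34R animals 62.3, 54.5 and 69.6. The highest G34R animal lay among the lowest WT animals. The log2 fold change was -0.31 (SE 0.0886, edgeR's adjusted p = 0.049), just under the threshold. The call ended without any one of WT replicate 1 (adjusted p = 0.0828), 2 (0.0709), 5 (0.0891) or 6 (0.0767), G34R replicate 1 (0.144) or 2 (0.26), or G34V replicate 1 (0.0612), 2 (0.0539) or 3 (0.0623), and within the library set it was -0.24 (adjusted p = 0.197). It also ended under 7 other alternatives, RLE scaling, another filter (by CPM), removal of mitochondrial and rRNA genes, libraries apart, only the compared groups and either block (adjusted p = 0.0515 to 0.271).

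The other 8 genes did not pass the test in G34R. Pcp4 (chromosome 16, 96467606 to 96525793) had 146 to 190 CPM in WT with a median of 168, and 102, 160 and 128 in G34R, a log2 fold change of -0.37 (SE 0.117, edgeR's adjusted p = 0.0906). Ldb2 (chromosome 5, 44472132 to 44799680), which marks layer 5 neurons with corticospinal axons, had 31.5 to 44.4 CPM in WT (median 40.9) and 31.0, 29.7 and 35.1 in G34R. Its log2 fold change was -0.28 (edgeR's adjusted p = 0.0916), and within the library set it was -0.42 (adjusted p = 0.00758). Without WT replicate 2, the lowest WT animal, Ldb2 passed the test at -0.34 (edgeR's adjusted p = 0.019). Sox5 (chromosome 6, 143828425 to 144781977), a SOX factor that controls the timing of deep-layer fates, had a median of 36.3 CPM in WT, between 33.1 and 39.9. G34R animals had 29.2, 33.2 and 31.0 CPM of Sox5, so that only the highest of them reached the WT range (log2 fold change -0.23, edgeR's adjusted p = 0.0788).

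Bcl11b (chromosome 12, 107910403 to 108003602), the zinc finger factor that acts downstream of Fezf2, had 90 to 130 CPM in WT (median 108) and 85.7, 94.5 and 91.7 in G34R, so that the G34R animals lay in the lower part of the WT range or under it. Bcl11b, Foxp2, Tle4 and Etv1 had log2 fold changes of -0.25, -0.22, -0.16 and -0.14 (edgeR's adjusted p = 0.26, 0.42, 0.196 and 0.446), with overlapping ranges. Etv1 (chromosome 12, 38779380 to 38870484), a marker of layer 5, was the tightest in G34R, at 37.5, 38.3 and 37.7 CPM against 38.0 to 45.8 in WT (median 40.1). In the library set that holds G34R, Etv1 had 37.4, 38.2 and 37.6 CPM in G34R libraries and 45.5, 40.1 and 45.7 in WT libraries. Its value ran from -0.28 to -0.12 over the alternatives other than leaving out an animal, without passing a test. For Tbr1 (chromosome 2, 61802930 to 61814114), the layer 6 determinant that binds the T-box motif, the G34R animals at 51.5, 56.3 and 54.0 CPM lay inside the WT range of 46.2 to 59.2. Its log2 fold change of -0.04 had a 95% interval from -0.20 to 0.12. Within the library set that holds G34R, WT libraries had 58.7, 61.9 and 57.2 CPM of Tbr1 and G34R libraries 51.4, 56.2 and 53.9. There no G34R library reached the WT libraries. Over the alternatives other than leaving out an animal, the Tbr1 value ran from -0.14 to -0.03 and passed no test. G34R replicate 2 had the highest Pcp4, Tle4, Foxp2 and Bcl11b of the 3 G34R animals (160, 80.5, 21.7 and 94.5 CPM) and the lowest Fezf2 and Crym. Without it Pcp4 fell by 0.54 (edgeR's adjusted p = 0.00599) and Tle4 by 0.25 (adjusted p = 0.0473) on the log2 scale.

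**Figure D3:**
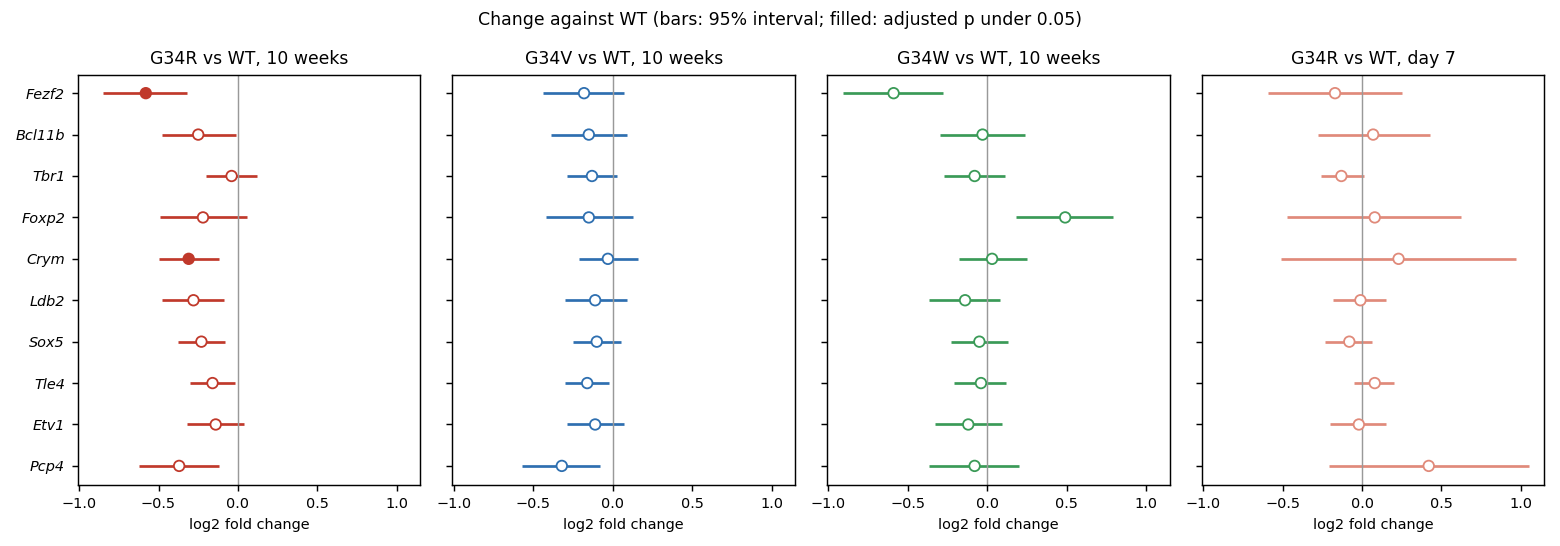
Log2 fold change against WT (horizontal axes) of the 10 genes for G34R, G34V and G34W at 10 weeks and G34R at day 7, with bars for the 95% interval and filled points where the adjusted p is under 0.05. Only Fezf2 and Crym in G34R at 10 weeks are filled, and Foxp2 in G34W lies on the higher side at 0.49.

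In G34V cortex no member passed edgeR's test. At an unadjusted p under 0.05, 2 of 10 were lower and 0 higher, against 8.54% and 7.07% of all genes. DESeq2 and limma-voom also called 0. All 10 log2 fold changes were below 0, with a median of -0.14, against 48% of all genes below 0 and a median of 0.008. Over all genes, 2.68% were called lower and 1.57% higher. Pcp4 had 136, 134 and 130 CPM in G34V, all under the lowest WT animal at 146, a log2 fold change of -0.32 (SE 0.116, edgeR's adjusted p = 0.161). With only the G34V and WT animals in the fit its adjusted p was 0.0158, and within the library set it was 0.0327 at -0.36. Tle4 (chromosome 19, 14448150 to 14598051), a co-repressor of the Groucho family that marks layer 6, had 73.0, 70.8 and 70.4 CPM, just under the lowest WT animal at 73.1 (log2 fold change -0.16, edgeR's adjusted p = 0.224). Fezf2 had 16.1, 15.6 and 15.2 CPM, inside the WT range, with a log2 fold change of -0.18 (adjusted p = 0.522), and Crym had -0.03 (0.935). The other 6 genes lay between -0.15 and -0.10, with G34V animals inside or across the edge of the WT range. Within the library set that holds G34V, several values were nearer to 0: Fezf2 was at -0.02 (edgeR's adjusted p = 0.97), Tbr1 at -0.07, Etv1 at -0.03 and Ldb2 at -0.01. Other alternatives that kept all animals moved values further from 0. Foxp2 went as low as -0.38, Bcl11b -0.33, Tbr1 and Tle4 -0.24 and Sox5 -0.20, and none of these genes passed the test under them. Pcp4 went as low as -0.44.

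In G34W cortex, with 2 animals, no member passed edgeR's test either. At an unadjusted p under 0.05, 1 of 10 was lower and 1 higher, against 8.97% and 8.17% of all genes. DESeq2 called 2 (Fezf2 and Foxp2), and 916 of all 21274 genes, and limma-voom called 0 members and 33 of all genes. The median was -0.06, and 8 of 10 values were below 0 (48.2% of all genes). Over all genes, edgeR called 1.05% lower and 0.564% higher. Fezf2 had 11.4 and 12.2 CPM, both under the lowest WT animal, and its log2 fold change was -0.59 (SE 0.148, edgeR's adjusted p = 0.0536), beside -0.58 in G34R. It passed without WT replicate 2 (-0.62, adjusted p = 0.0496) or 6 (-0.68, 0.00421), and over its alternatives the adjusted p ran from 0.00421 to 0.379. Within the library set that holds G34W, Fezf2 was at -0.43 (edgeR's adjusted p = 0.22), and with runs of animal numbers as a block at -0.37 (0.379). Apart from Fezf2 and Foxp2, the members lay between -0.14 (Ldb2) and 0.03 (Crym). Within the library set, Ldb2 was at -0.04 and Etv1 at -0.03.

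Foxp2 (chromosome 6, 14901349 to 15441977), a forkhead factor of corticothalamic neurons, was the member with the largest positive value in G34W. Its 2 animals had 31.0 and 30.2 CPM, above every WT animal (17.6 to 26.4), every G34R animal (16.1, 21.7 and 18.8) and every G34V animal (21.5, 19.4 and 18.3). Against WT the log2 fold change was 0.49 (SE 0.144, edgeR's adjusted p = 0.108). Their sums of 14 striatal markers, 1130 and 994 CPM, were at the upper end of the WT animals' (486 to 1130).

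Between substitutions, Foxp2 was the only member to pass a test. It was lower in G34R than in G34W by a log2 fold change of -0.70 (SE 0.164, edgeR's adjusted p = 0.0431), where 1.88% of all genes were called in either direction. G34R sums of striatal markers were 626, 850 and 633 CPM, below both G34W sums. All 14 striatal markers were below 0 in this comparison, with a median log2 fold change of -0.68. EdgeR called 0 of the 14, and 6 were lower at an unadjusted p under 0.05, against 9.56% of all genes. The part of striatal RNA in the Foxp2 result was not tested. The Foxp2 call ended without any one of 8 animals: G34R replicates 1 (adjusted p = 0.119), 2 (0.0511) and 3 (0.109), G34W replicates 1 (0.143) and 2 (0.0994), G34V replicate 2 (0.0608) and WT replicates 3 (0.0519) and 6 (0.0514). G34R and G34W libraries lie in different sets, and with the sets as a block the adjusted p was 0.294 at an unchanged -0.70.

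Fezf2 differed between G34R and G34V by -0.40 (95% interval -0.70 to -0.10, edgeR's adjusted p = 0.307) and between G34R and G34W by 0.01 (-0.33 to 0.35, adjusted p = 0.986). G34R libraries lie in one set and the G34V and G34W libraries in the other. With the sets as a block, Fezf2 was lower in G34R than in G34V by -0.78 (SE 0.145, edgeR's adjusted p = 0.0722) and than in G34W by -0.37 (SE 0.157, adjusted p = 0.511), and with runs of animal numbers as a block by -0.66 (0.672) and -0.43 (0.57). The fit with the sets as a block again counted the 2 libraries of WT replicate 3 as separate samples. Between G34V and G34W it was at 0.41 (adjusted p = 0.334), and at 0.23 with the runs block (0.873). For G34R against G34V, edgeR, DESeq2 and limma-voom called 0 of 10, and edgeR called 0.23% of all genes. There 2 members were lower at an unadjusted p under 0.05, against 5.28% of all genes. For G34V against G34W, edgeR and limma-voom called 0 of 10. DESeq2 called 1, Foxp2, and 309 of all 21274 genes. At an unadjusted p under 0.05, 1 was lower and 1 higher, against 5.81% and 5.88% of all genes. Of all genes 0.15% were called by edgeR. In that comparison Foxp2 was at -0.63 (edgeR's adjusted p = 0.145).

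At day 7, G34R and WT animals overlapped for all 10 genes, and edgeR, DESeq2 and limma-voom called 0. None had an unadjusted p under 0.05, against 3.76% of all genes on the lower side and 3.94% on the higher. Of the 20849 genes tested 0.302% were called. Fezf2 had 35.7, 23.8, 22.4 and 29.0 CPM in WT and 28.2, 20.1, 27.2 and 22 in G34R, a log2 fold change of -0.17 with a 95% interval from -0.59 to 0.25. That interval reaches the 10-week value of -0.58. Crym varied most in WT, with 125, 57.6, 133 and 91.6 CPM, and had 136, 117, 103 and 118 in G34R (log2 fold change 0.23, interval -0.51 to 0.97). Pcp4 had 53.2, 57.7, 75.1 and 54.1 CPM in WT and 65.9, 107, 56.0 and 90.1 in G34R, a log2 fold change of 0.42 (interval -0.21 to 1.05). Sums of 14 markers of striatum, where Pcp4 is also expressed, were 234 to 458 CPM in the WT pups and 194 to 555 in the G34R pups. The remaining 7 genes lay between -0.13 and 0.08.

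The difference of the G34R effect between the ages was tested directly. No member passed edgeR's test, DESeq2 or limma-voom, and 1.16% of the 22417 genes did. At an unadjusted p under 0.05 there were 2, Pcp4 with a difference of -0.78 on the log2 scale (SE 0.25, edgeR's adjusted p = 0.195) and Tle4 with -0.23 (SE 0.0895, adjusted p = 0.307). Over all genes, 5.69% were below 0 at that threshold and 5.3% above. Fezf2 had -0.40 (95% interval -0.83 to 0.04, adjusted p = 0.507) and Crym -0.53 (-1.08 to 0.02, adjusted p = 0.473). Of the 10 differences 9 were below 0, against 50% of all genes.

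With age, 9 of the 10 genes changed in WT cortex: 7 were lower and 2 higher at 10 weeks than at day 7. Most genes changed in this comparison, 67.7% of those tested (33.3% higher and 34.4% lower), so a count of 9 is not particular to these genes. Sox5 had the largest fall, from 92.4, 93.8, 76.3 and 84.0 CPM at day 7 to 33.1 to 39.9 at 10 weeks (median 36.3), a log2 fold change of -1.25 (SE 0.063, edgeR's adjusted p = 1.14e-14). Pcp4 had the largest rise, from between 53.2 and 75.1 CPM to between 146 and 190, a log2 fold change of 1.48 (SE 0.168, adjusted p = 3.54e-07). In both cases every animal of one age lay apart from every animal of the other.

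Ldb2 fell from 56.9 to 73.8 CPM at day 7 to 31.5 to 44.4 (log2 fold change -0.78, SE 0.0808, edgeR's adjusted p = 8.92e-09). Fezf2 fell by 0.64 and Foxp2 by 0.48 on the log2 scale (SE 0.132 and 0.155), and Etv1 rose by 0.59 (SE 0.0875), again without overlap between the ages. Crym (-0.40, edgeR's adjusted p = 0.041), Bcl11b (-0.32, 0.026) and Tle4 (-0.19, 0.00511) fell with overlapping ranges. The Crym call ended in 10 of 22 fits that left out 1 animal and came to -0.24 without day-7 WT replicate 3 (adjusted p = 0.207). The Bcl11b call ended in 4 and came to -0.21 without day-7 WT replicate 1 (0.136). Among males alone the calls of Crym (0.353), Foxp2 (0.0807) and Bcl11b (0.0528) ended. Tbr1 did not pass the test, with 57.7 ± 8.11 CPM (SD, n = 4) at day 7 and 55.4 ± 5.2 (n = 6) at 10 weeks (log2 fold change -0.06, 95% interval -0.22 to 0.11), though among males alone it was at -0.21 (edgeR's adjusted p = 0.0372). The order per kilobase changed with these shifts: Ldb2 was the third at day 7, at 20 ± 2.16 CPM per kilobase, and the fifth at 10 weeks. The 6 WT animals at 10 weeks were male and 2 of the 4 at day 7 were female. The labels name no preparation batch, so age and any difference in preparation between the 2 ages cannot be told apart.

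**Figure D4:**
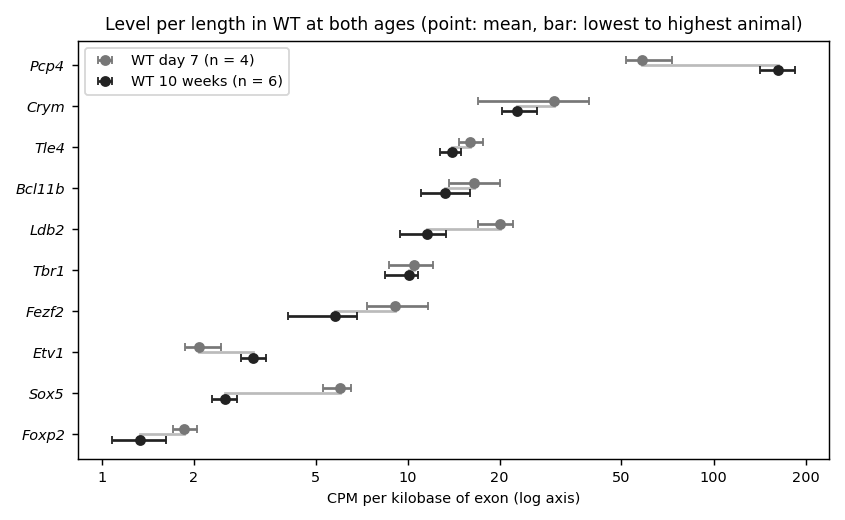
Mean CPM per kilobase of exon (log axis) of each gene in WT cortex at day 7 (grey) and 10 weeks (black), with bars from the lowest to the highest animal. Sox5 moves down from 6.03 to 2.53 and Pcp4 up from 58.5 to 163, while Tbr1 lies at 10.5 and 10.1.

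Foxp2, Bcl11b and Pcp4, which striatal neurons also express, were higher in animals with more RNA of 14 striatal markers, a list that holds no member. After adjustment only Foxp2 at day 7 passed. In the 6 WT animals at 10 weeks, whose summed striatal markers ranged from 486 to 1130 CPM, Foxp2 had Pearson's r = 0.91 (exact permutation p = 0.00556, adjusted p = 0.0556 over 20 relations) and Spearman's rho = 0.94 (exact permutation p = 0.0167, adjusted p = 0.167). In the 8 animals of both genotypes at day 7, with sums of 194 to 555, Foxp2 had r = 0.88 (exact permutation p = 0.00208, adjusted p = 0.0416) and rho = 0.93 (exact permutation p = 0.00223, adjusted p = 0.0446), and r = 0.75 without the 2 animals farthest from the median. At 10 weeks r without the 2 farthest animals rests on 4 animals and was unstable: it rounded to 1.0 for Foxp2, but also went from 0.11 to 0.99 for Sox5 and from -0.40 to -0.92 for Etv1.

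For Bcl11b, which also controls striatal neurons, r was 0.88 (exact permutation p = 0.0139, adjusted p = 0.0927) and rho 0.89 (p = 0.0333, adjusted 0.178) at 10 weeks. At day 7 its r was 0.72 (exact permutation p = 0.0414, adjusted p = 0.166) and rho 0.76 (p = 0.0368, adjusted 0.178). Without the 2 farthest animals the Bcl11b r was 0.94 at 10 weeks and 0.40 at day 7. Pcp4 had r = 0.84 (exact permutation p = 0.05, adjusted p = 0.167) and rho = 0.84 (p = 0.0444, adjusted 0.178) at 10 weeks, and r = 0.75 (exact permutation p = 0.0231, adjusted p = 0.115) and rho = 0.62 (p = 0.115, adjusted 0.288) at day 7. Without the 2 farthest animals the Pcp4 r was 0.71 and 0.60.

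Fezf2 had values on the other side of 0, with r = -0.24 at 10 weeks (exact permutation p = 0.661, adjusted p = 0.778; rho = -0.14, p = 0.803, adjusted 0.945) and -0.47 at day 7 (exact permutation p = 0.244, adjusted p = 0.485; rho = -0.55, p = 0.171, adjusted 0.38). Without the 2 farthest animals its r was -0.04 and -0.29. The other 6 members had r between -0.54 (Ldb2) and 0.36 (Tle4) at 10 weeks and between -0.63 (Sox5) and 0.48 (Crym) at day 7, with no adjusted p under 0.05. No value is given within a library set or a day-7 genotype, each of which holds fewer than 6 animals of 1 genotype. None of the 14 striatal markers was called in any of the 3 comparisons with WT at 10 weeks (0 lower and 0 higher at an unadjusted p under 0.05 in G34R and G34V, 3 higher in G34W). All 14 had log2 fold changes below 0 in G34R and in G34V and 0 of 14 in G34W, with medians of -0.33, -0.20 and 0.32, while the 10 members had medians of -0.24, -0.14 and -0.06. The part of striatal RNA in the values of the members was not tested.

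**Figure D5:**
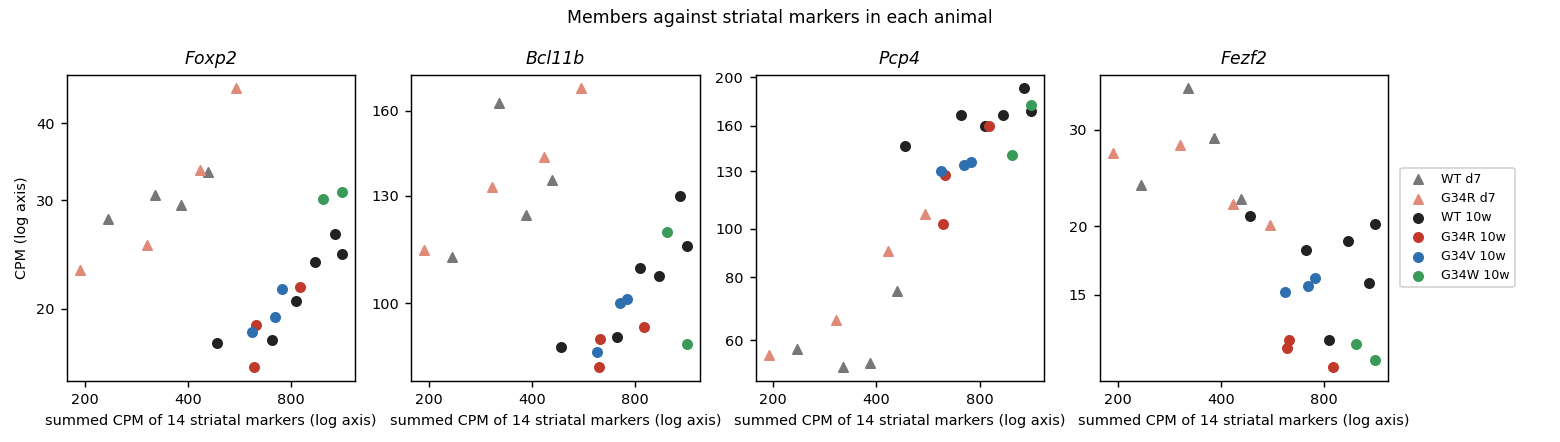
CPM of Foxp2, Bcl11b, Pcp4 and Fezf2 (vertical log axes) against the summed CPM of 14 striatal markers (horizontal log axis) in each of the 22 animals, coloured by group. In the 6 WT animals at 10 weeks Foxp2, Bcl11b and Pcp4 go up with the striatal sum (r of 0.91, 0.88 and 0.84) and Fezf2 does not (-0.24).

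Other genes of layer 5 and of layer 6 and subplate gave a mixed picture. Of 16 other layer 5 genes, 2 fell in G34R (Igfbp4 and S100a10) and 1 rose (Cntn6), with a median of -0.04. Igfbp4, which encodes an insulin-like growth factor binding protein, had 59 to 84.6 CPM in WT (median 63.7), 44.1 to 53.3 in G34R, 46.9 to 50.8 in G34V and 40.5 to 41.4 in G34W. No mutant animal reached the WT range, and it fell by 0.49, 0.46 and 0.72 on the log2 scale (edgeR's adjusted p = 0.00502, 0.0117 and 0.0069). Each call ended without certain animals: in G34R without replicate 3 (0.0569), in G34V without replicate 1 or 2 (up to 0.0869), and in G34W without replicate 1 (0.0834). Cntn6, a neural cell adhesion gene, rose by 0.44 in G34R (SE 0.066, adjusted p = 0.000338) and by 0.29 in G34V (0.0168), a call that ended without G34V replicate 2 or 3, within the library set and with runs of animal numbers as a block (up to 0.114).

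In G34V the same 16 genes had 1 fall and 1 rise, and in G34W 3 fell and 0 rose (6 lower and 3 higher at an unadjusted p under 0.05). The other 2 in G34W were Fam84b (-0.57, edgeR's adjusted p = 0.0235, lost under 6 of 26 alternatives, among them without G34W replicate 1) and Chrna6, a nicotinic receptor gene with at most 0.819 CPM in WT, listed at 0 and 0.153 CPM in the 2 G34W animals, a call that ended under 15 of 25 alternatives. S100a10, a marker of corticostriatal and subcerebral neurons, fell by 0.46 in G34R (edgeR's adjusted p = 0.0308), a call that ended under 10 of 26 alternatives (up to 0.193), among them without G34R replicate 1 or 2 or WT replicate 3, 4, 5 or 6.

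Of 15 layer 6 and subplate genes, 1 fell in G34R, 3 in G34V and 0 in G34W (3 lower at an unadjusted p under 0.05 there), and 0 rose in each. Rprm, a marker of layer 6 neurons, had 22.7 to 26.4 CPM in G34V against 34.2 to 39 in WT, a log2 fold change of -0.62 (SE 0.0805, edgeR's adjusted p = 0.000144). Moxd1 fell in G34V by 0.84 (SE 0.133, edgeR's adjusted p = 0.000998) and in G34R by 0.66 (SE 0.131, 0.0043, or 0.0604 with runs of animal numbers as a block). Thsd7b fell in G34V by 0.41 (edgeR's adjusted p = 0.0442, a call that ended under 13 of 26 alternatives, up to 0.264, among them without G34V replicate 2 or 3, any G34R animal, or any WT animal but replicate 4). Summed over the 15 genes, the level was 285 to 316 CPM in WT, 242 to 272 in G34R, 227 to 260 in G34V and 260 to 279 in G34W, so that no mutant animal reached the WT range. The median of this list was -0.17, -0.27 and -0.09. Sums of the other layer 5 genes overlapped, at 435 to 500 CPM in WT, 414 to 442 in G34R, 408 to 454 in G34V and 406 to 453 in G34W. The members summed to 609 to 691 CPM in WT, 492 to 580 in G34R and 549 to 591 in G34V, under WT. In G34W they summed to 619 to 628, inside the WT range.

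Upper-layer genes, which mark the neurons that project within the cortex, had medians on the other side of 0. Of 18, 2 rose and 1 fell in G34R, 2 rose and 2 fell in G34V, and 2 rose and 1 fell in G34W, with medians of 0.05, 0.06 and 0.12 in turn. The difference between the lists was not tested. The gene that fell in all 3 was Lamp5, a vesicular membrane protein of superficial neurons and some interneurons, from 95.6 to 126 CPM in WT to 69.7 to 74.7 in G34R, 66.1 to 75 in G34V and 71.8 to 74.2 in G34W. Its log2 fold changes of -0.61, -0.68 and -0.61 (edgeR's adjusted p = 6.01e-05, 3.8e-05 and 0.00288) were kept under all 26 alternatives. The 12 pan-neuronal genes had medians of -0.05, -0.02 and -0.14, with 1, 0 and 1 of them lower and 0 higher. Without adjustment, p was under 0.05 for 3 of the 12 on the lower side in G34R, 1 in G34V and 6 in G34W, and on the higher side for 1 in G34W. Their summed level was 8610 to 9440 CPM in WT and 8210 to 8440 in G34R, wholly under WT, with 8330 to 9120 in G34V and 8180 to 9220 in G34W. The part of this lower neuronal sum in the deep-layer values of G34R was not tested.

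Among 24 regulators of layer fate, 3 rose in G34R (Neurog2, Sox4 and Pou3f2) and 2 fell, Neurod6 among them, 1 rose in G34V, and 1 rose and 1 fell in G34W. The lists share genes. Pou3f2 is also among the upper-layer genes that rose in G34R and G34V. Neurod6 is also the pan-neuronal gene that fell in G34R and G34W. Pou3f2, a POU factor of upper-layer neurons, had 40.6 to 45.8 CPM in G34R against 26.3 to 38.3 in WT (log2 fold change 0.41, SE 0.0993, edgeR's adjusted p = 0.0198, lost without G34R replicate 1 or 2 and with the library sets or the runs of animal numbers as a block, up to 0.166). The calls of Neurog2 and Sox4 ended without G34R replicate 2, and that of Sox4 also with the runs block (up to 0.0767 and 0.182). Of 16 paralogs of the members tested at 10 weeks, 0 were called in G34R (1 lower and 2 higher at an unadjusted p under 0.05), 2 rose in G34V and 0 were called in G34W (3 lower and 2 higher unadjusted). The 8 described targets of Tbr1, Fezf2 or Foxp2 gave 1 rise in each substitution and 0 falls. In G34R and G34V it was Srpx2, a described target of Foxp2, which rose from 0.726 to 1.21 CPM in WT to 1.92 to 2.69 in G34R (log2 fold change 1.31, SE 0.196, edgeR's adjusted p = 0.000339) and 1.76 to 2.38 in G34V (1.14, SE 0.198, 0.00214, but 0.107 with runs of animal numbers as a block). In G34W it was Cntnap2, a neurexin-family gene that Foxp2 represses (0.35, lost under 8 of 26 alternatives, among them without either G34W animal). At day 7 none of the genes of these 6 lists was called in G34R, and at an unadjusted p under 0.05 each list had at most 1 gene in each direction.

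Markers of other cells moved in the same animals. Of 12 microglial genes 11 rose in G34R, 8 in G34V and 1 in G34W, and their summed level was 456 to 511 CPM in WT, 836 to 972 in G34R, 588 to 750 in G34V and 517 to 591 in G34W. Oligodendrocyte markers summed to 4640 to 6080 CPM in WT, 3510 to 4510 in G34R, 2900 to 3790 in G34V and 3140 to 4760 in G34W, with 0, 6 and 3 of 12 lower (5 lower at an unadjusted p under 0.05 in G34R). Choroid plexus markers summed to 157 to 973 CPM in WT and to 16.6 and 212 in the 2 G34W animals, with 0 of 10 called in each substitution (at an unadjusted p under 0.05, 0 in G34R and G34V and 2 lower in G34W). Interneuron, thalamic, hippocampal and astrocyte lists gave 1, 1, 0 and 1 calls in G34R, 0, 2, 0 and 1 in G34V, and 1, 1, 1 and 1 in G34W. The astrocyte call was a rise of Gfap each time, by 1.82, 0.84 and 0.51 on the log2 scale (edgeR's adjusted p = 7.41e-11, 2.15e-06 and 0.0069). All calls of the other 3 lists were falls. Rgs16 of the thalamic list fell by 0.79, 1.12 and 1.35, calls that ended under 5, 0 and 7 of 26 alternatives. At an unadjusted p under 0.05, interneuron genes in G34V had 3 lower, and hippocampal genes 0 in G34R, 1 lower in G34V and 5 lower in G34W. The part of these cells in the values of the deep-layer genes was not tested. For 2 members the counts may hold reads of another gene: Pcp4 shares 243 exonic bases, 23.7% of its own, with Igsf5 on the same strand, and Sox5 shares 1330 (9.25%) with Sox5os1 on the opposite strand. How the counting treated them is not given in the sources used here.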

How the data were processed

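Raw counts per gene were deposited by the authors for 23 libraries, as whole numbers with no normalisation. Trimmomatic 0.32, bedtools 2.27.1, featureCounts 1.4.4 and the aligner STAR 2.3.0e are named in the submitters' processing notes, beside the build mm10. Neither strand setting nor annotation release is stated there. Of 39017 genes, 37693 had an identifier in GENCODE M21 (GRCm38), which gave coordinates and exon lengths. The 2 libraries of 1 WT animal were summed, which leaves 22 animals, and 175 genes (chromosome Y, Xist and Tsix) were left out.

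Counts were tested with edgeR 4.0.16 (robust quasi-likelihood, TMM, filterByExpr, Benjamini-Hochberg) in R 4.3.3. The 14 animals at 10 weeks were fitted together (21274 genes, 10 residual degrees of freedom). The fit of the 8 day-7 animals held a sex term (20849 genes, 5), and all 22 gave the comparisons between ages (22417 genes, 16). SE is the log2 fold change divided by the square root of F, and intervals are 95%. Correlations used Python 3.11.15 and scipy 1.17.1. The script was tested on simulated data.

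The members and the 15 other gene lists were chosen with earlier results of these data known. Named are all 10 members and, from each other list, some of the up to 3 genes per comparison with WT that have the smallest adjusted p among those called. The alternatives were RLE scaling, 2 other filters, DESeq2 1.42.0, limma-voom (limma 3.58.1), mitochondrial and rRNA genes left out, the summed libraries kept apart, a fit of the compared groups alone, a block by runs of neighbouring animal numbers, sex as a term or not, only males, only WT and G34R, and each animal left out. The library sets and the striatal correlations were chosen after seeing the data.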

Additional observations from a re-analysis of the deposited data

Results flagged for a closer look

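Among 30 groups of 4 to 10 animals (10 genes in 3 groups), 1 held an animal far from the others: Tle4 in G34R at day 7, where replicate 4 had 91.7 CPM and the nearest animal 96.8, a gap of 0.879 of the whole range against a critical value of 0.829. Chance flags about 1 in 20 such groups.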

How the results depend on the processing

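Of 692 member values under alternatives other than leaving out an animal, 646 kept their direction and their side of the threshold, 17 lost the call, 14 gained it and 15 changed sign. Of 1066 values with 1 animal left out, the numbers were 1000, 32, 5 and 29. In the comparisons between substitutions, only Fezf2, Crym and Foxp2 entered these tallies and the sign changes listed below. The cause of these changes was not tested beyond what each alternative leaves out. The count of members called in G34R against WT (2) was 1 under RLE scaling, with a CPM filter, without mitochondrial and rRNA genes, with the libraries of 1 WT animal apart or with only the compared groups. The same count was 4 in DESeq2, which called 1661 of all 21274 genes, and 1 to 2 with an animal left out. It was 2 within the library set, with either block and without WT replicate 2, but then Fezf2 and Ldb2 in place of Fezf2 and Crym, and 2 without G34R replicate 2, Tle4 and Pcp4. For G34V (0) it was 1 with only the compared groups or within the library set. For G34W (0) it was 1 with no filter, with a CPM filter or with libraries apart, 2 in DESeq2, and 0 to 1 with an animal left out. For G34R against G34W (1) it was 0 in limma-voom, with either block or with sex as a covariate, and 0 to 1 with an animal left out, and for G34V against G34W (0) it was 1 in DESeq2.

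Sign changes concerned differences that passed no test, though some were not small after the change, such as Fezf2 at -0.43 in G34R against G34W. With runs of animal numbers as a block, Crym was at 0.06 and Ldb2 at 0.01 in G34V, and in G34W Bcl11b was at 0.07, Tbr1 0.10, Crym -0.10, Sox5 0.04 and Tle4 0.05. Between substitutions, Foxp2 was then at 0.22 (G34R against G34V), Fezf2 at -0.43 (G34R against G34W) and Crym at 0.17 (G34V against G34W). With sex as a covariate, which in effect leaves out G34W replicate 2, Crym was at -0.06, Tle4 at 0.03 and Pcp4 at 0.08 in G34W. Crym was then at 0.04 in G34V against G34W. With the library sets as a block, Fezf2 was at -0.37 in G34R against G34W. With an animal left out, Crym in G34V ran from -0.06 to 0.03. In G34W the ranges were -0.25 to 0.15 for Bcl11b, -0.07 to 0.12 for Crym, -0.15 to 0.03 for Sox5, -0.12 to 0.02 for Tle4, -0.31 to 0.03 for Etv1 and -0.26 to 0.07 for Pcp4. Foxp2 ran from -0.18 to 0.03 in G34R against G34V, Fezf2 from -0.04 to 0.07 in G34R against G34W, and Crym from -0.15 to 0.05 in G34V against G34W. At day 7 the ranges were -0.05 to 0.17 for Bcl11b, -0.16 to 0.22 for Foxp2, 0 to 0.42 for Crym, -0.09 to 0.03 for Ldb2 and -0.10 to 0.04 for Etv1, and Tbr1 between the ages ran from -0.14 to 0.02.

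Over all genes, the count called in G34R (1193) was 693 to 1352 with an animal left out, and 1661 in DESeq2. In G34V (905) it was 497 to 1014, and 414 with the runs block. In G34W (343) it was 68 to 590, 916 in DESeq2 and 33 in limma-voom, and at day 7 (63) it was 6 to 40, 209 in DESeq2 and 151 in limma-voom. Between substitutions it was 13 to 129 with an animal left out and 4 to 281 otherwise for G34R against G34V (49). For G34R against G34W (400) it was 118 to 628, 1118 in DESeq2, 90 in limma-voom, 19 with the runs block and 35 with the library sets as a block, and for G34V against G34W (32) it was 10 to 302 and 12 to 325. Groups share no replicate number in the labels, and runs of neighbouring animal numbers, which hold WT and mutant animals, stood in as the block.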
